A study of Mus musculus with 2 samples.

Results

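Ly6e-positive neutrophils were taken from 2 droplet libraries of GR1+ cells of mouse mammary tumors. The members were selected on their own measured counts of UMIs (unique molecular identifiers, 1 per captured transcript), so those counts are given as a description. A barcode was kept if it showed between 500 and 5000 genes and drew no more than 10% of its UMIs from mitochondrial transcripts. A neutrophil was a kept barcode with at least 1.5% of its UMIs from S100a8 and S100a9 together and under 0.5% from C1qa, C1qb, C1qc and Apoe, and a member was a neutrophil with at least 1 Ly6e UMI. This gave 591 members among 2298 neutrophils, 5187 kept cells and 7951 barcodes. 4T1 is a BALB/c mammary carcinoma line. 4T1P is its parental form, labelled non-responding, and 4T1M is a mutagenized derivative of it, labelled responding, which the study calls a clone although its methods describe mutagenized cells of many clones. By the study's account the response is that of the tumors to anti-PD1. The GR1+ cells were isolated from the tumors by positive selection, and the mice were 6 to 8 weeks old by the labels. No treatment is listed for either group, and the study's methods place the harvest for single-cell assays at baseline, before treatment. All mice of a group were pooled into 1 library. GR1 is an epitope of Ly6G and Ly6C, so neutrophils and monocytic cells were collected together. With 1 library per condition no spread between animals could be estimated and no test was run; every interval below is at 95% and covers counting error only.

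Ly6e encodes a small GPI-anchored surface protein of the Ly6 family that interferons induce and that restricts the entry of some viruses. Interferons act through receptor-bound kinases on genes with an interferon-stimulated response element (ISRE) in their promoters, whose products block viral replication, degrade RNA or tag proteins. Neutrophils form granule proteins as precursors, lose those transcripts as they mature, and respond to interferon with many of the same genes as other cells. In the files' build, GRCm38, Ly6e (ENSMUSG00000022587) lies on the plus strand of chromosome 15 from 74955051 to 74959905, and the annotation gives it 16 transcripts, 13 of them protein coding.

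Of the 612 neutrophils of 4T1P, 93 held a Ly6e UMI (15.2%, 12.4 to 18.3%). In 4T1M 498 of 1686 did (29.5%, 27.4 to 31.8%). Over all neutrophils Ly6e stood at 69.5 CPM (59.6 to 80.6; CPM is a gene's UMIs scaled to a common total of UMIs) in 4T1P, from 174 UMIs, and at 178 CPM (168 to 189) in 4T1M, from 1174 UMIs. Most members were called on very few transcripts: 59 of those in 4T1P and 255 of those in 4T1M held exactly 1 Ly6e UMI, 34 and 243 held 2 or more, and the highest count in a cell was 8 and 15. A neutrophil without a Ly6e UMI may therefore still express the gene.

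The share depended on depth. Positive neutrophils had a median of 3788 UMIs in 4T1P and 3644.5 in 4T1M, against 2902 and 2710.5 in negative ones. In 4T1P 4 of 62 neutrophils were positive in the lowest UMI decile and 23 of 61 in the highest, and in 4T1M 33 of 169 and 103 of 168, while the Ly6e level in CPM had no such rise with depth. After each neutrophil was thinned to 1000 UMIs, 36 of 612 (5.88%) were positive in 4T1P and 205 of 1682 (12.2%) in 4T1M, with 4 shallower cells left out in 4T1M. The order of the libraries was the same at full depth and after thinning.

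**Figure D1:**
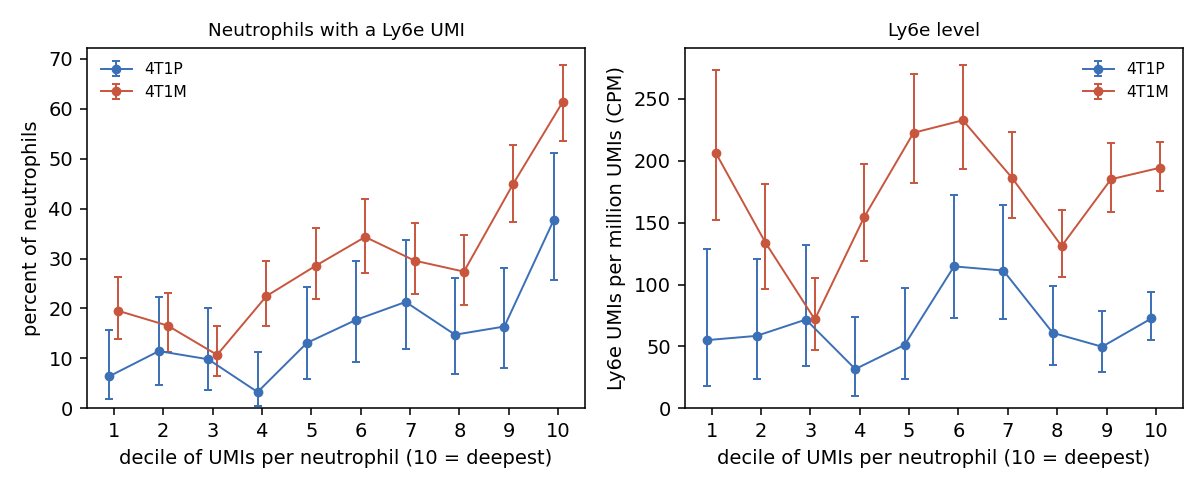
Share of neutrophils with a Ly6e UMI (left, percent) and Ly6e level (right, CPM) in each decile of UMIs per neutrophil, for 4T1P and 4T1M; points are values over all neutrophils of a decile and bars are 95% intervals for counting error. The share is highest in decile 10 in both libraries (23 of 61 and 103 of 168 cells), and the level shows no rise with depth.

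Ly6e was not particular to neutrophils in these libraries. Cells high in the macrophage genes and low in S100a8 and S100a9 held 169 CPM (159 to 179) in 4T1P and 523 CPM (507 to 540) in 4T1M, and cells low in both held 258 and 366 CPM. Neutrophils had the lowest level of these 3 classes in both libraries. No class known to lack Ly6e was at hand to give the background of free RNA in the droplets, so a part of the single-UMI cells may reflect such RNA and this was not tested. Just outside the S100 threshold, from 1.0 to 1.5%, 10 of 34 cells of 4T1P and 49 of 134 of 4T1M were positive, and just inside it, from 1.5 to 2.0%, 5 of 31 and 41 of 106 were. Just inside the macrophage limit, from 0.25 to 0.5%, 2 of 14 and 18 of 39 cells were positive, and just outside it, from 0.5 to 1.0%, 1 of 6 and 15 of 28.

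The members carried the defining transcripts of neutrophils. Csf3r, the receptor for the granulocyte growth factor, stood at 539 CPM in the positives of 4T1P and 813 CPM in those of 4T1M, and Cxcr2, the chemokine receptor of mature neutrophils, at 358 and 386 CPM. The 11 neutrophil markers summed to 16918 CPM in the positives of 4T1P and 16236 CPM in those of 4T1M, below the 25486 and 21121 CPM of negatives matched on UMIs (log2 ratios of -0.59 and -0.38). Of the 15 T and NK cell markers, 12 were at 0 in the positives of 4T1P and 10 in those of 4T1M, with a sum of 99.9 and 65.8 CPM against 58.9 and 54.4 CPM in matched negatives. The B cell markers summed to 86.1 and 54.6 CPM (most abundant Ighm and Igkc), the dendritic cell markers to 67.2 and 1.12 CPM (Siglech and Flt3), and the epithelial markers to 260 and 14.2 CPM (Krt18 in both). In matched negatives they were 8.79 and 37.95 CPM for B cells, 1.28 and 0.74 CPM for dendritic cells and 13.8 and 14.6 CPM for epithelium, so in 4T1P the positives were above them by 3.15, 4.91 and 4.14 on the log2 scale, and the part of such RNA in the results was not tested. The 18 monocyte and macrophage markers summed to 3572 and 2985 CPM against 2888 and 1958 CPM in matched negatives, and of these Lyz2, which neutrophils also express, was 3033 and 1907 CPM, while Adgre1, the macrophage F4/80 antigen, was at 0 UMIs in the positives of 4T1P (a count of 0 allows up to 5.17 CPM) and at 5.98 CPM in those of 4T1M. In the positives of 4T1P, all 30 Siglech UMIs came from 1 cell.

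A small number of deep cells held much of the members' RNA. In 4T1P the 23 positives of the highest UMI decile held 57.9% of all UMIs of the positives, and in 4T1M the 103 positives of that decile held 48.8%. These deep cells differed from the other members, and deep negatives differed from other negatives in granule genes and macrophage markers too. Their granule genes summed to 69497 CPM in 4T1P against 5092 CPM in the 70 other positives, and to 33414 against 5149 CPM in 4T1M; in negatives the sums were 50988 against 5538 CPM and 37193 against 5893 CPM. Their macrophage markers summed to 5456 against 978 CPM in 4T1P and 4747 against 1304 CPM in 4T1M (4617 against 1018 and 3125 against 1012 CPM in negatives), their MHC class II genes to 1160 against 356 and 1468 against 481 CPM (598 against 502 and 405 against 551 CPM in negatives), and in 4T1P their epithelial markers to 443 against 8.19 CPM (9.20 against 19.5 CPM in negatives). The antiviral genes went the other way: 2789 CPM in the deep positives of 4T1P against 11642 CPM in the others, and 6642 against 12700 CPM in 4T1M, as they did in negatives (2825 against 4997 and 4074 against 6720 CPM). Within the highest decile the positives were also deeper than the negatives they were matched to (medians of 13399 against 9237.5 UMIs in 4T1P and 10782 against 8770 in 4T1M). No doublet caller was run, and how far doublets account for these cells was not tested. Values below are over all members unless they are given without the highest UMI decile, which leaves 70 and 395 positives.

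Positives were compared with negatives of the same library after weighting each UMI decile of the negatives to the number of positives in it. The ratio of their CPM is given on the log2 scale, with 0.5 UMIs added to each sum, and a gene counts as higher or lower from 1.5-fold on. Ratios after thinning to 1000 UMIs compare cells that kept a Ly6e UMI with all others, without UMI deciles. These were 36 against 576 cells in 4T1P and 205 against 1477 in 4T1M, and the others include members whose Ly6e UMIs were lost. They rest on a single random draw and, in 4T1P above all, on few UMIs per gene. Of 2032 genes with a mean of at least 50 CPM over the 2 libraries, 250 (12.3%) were higher with Ly6e in 4T1P and 84 (4.13%) lower, and in 4T1M 195 (9.6%) were higher and 19 (0.935%) lower. The 2 libraries shared 114 higher genes (5.61% of those tested), which were 45.6% of the higher genes of 4T1P and 58.5% of those of 4T1M, and 8 lower genes (0.394%), which were 9.52% and 42.1%. These shares depended on the scaling: with TMM factors in place of total UMIs all ratios moved by -0.25 in 4T1P and -0.26 in 4T1M, and 107 genes were higher and 264 lower in 4T1P, 66 and 97 in 4T1M, and 36 and 40 in both. The median over all tested genes was 0.06 in 4T1P and 0.11 in 4T1M, and list values are read beside it. Counts of list members over all members are read beside the 12.3 and 4.13% of 4T1P and the 9.6 and 0.935% of 4T1M. Among the 114 shared genes 14 were antiviral genes, 7 were MHC class I or GTPase genes and 28 ribosomal protein genes, and 60 were in none of the lists. Over the 9 lower deciles the libraries shared 58 higher genes, 36 of them among the 114, and 9.79% of all tested genes were higher in 4T1P and 4.87% in 4T1M, and 6.35 and 1.08% lower. They also shared 8 lower genes, of which only Retnlg was among the 8 above.

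**Figure D2:**
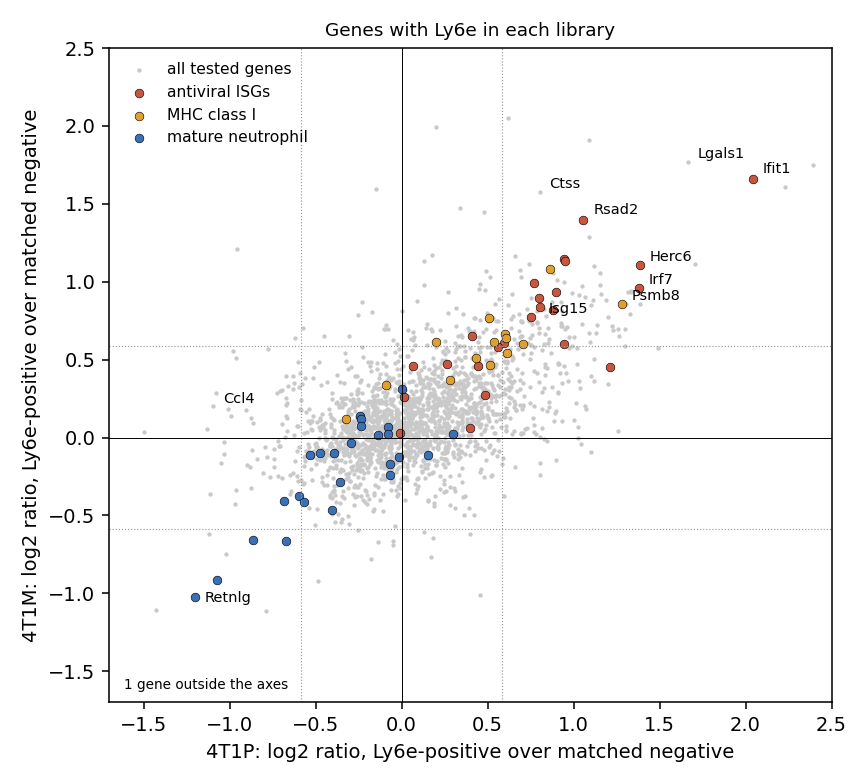
Log2 ratio of Ly6e-positive over UMI-matched Ly6e-negative neutrophils in 4T1P (x axis) and 4T1M (y axis) for 2032 genes of at least 50 CPM, 1 of which lies outside the axes; colored points are antiviral, MHC class I and mature neutrophil genes and dotted lines mark 1.5-fold. 14 antiviral genes lie beyond 1.5-fold in both libraries, and Retnlg and other mature neutrophil genes lie at the lower left; Lgals1 turns negative in 4T1P without the highest UMI decile.

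A narrower set was also higher without the deep cells. Besides the calculation above, 16 genes were higher in both libraries without the highest UMI decile, with S100a8 and S100a9 at 5% or more of UMIs, without cells that held RNA of 5 macrophage genes, and with every cell weighted equally; this set was formed after the values were seen. It held 9 of 24 tested antiviral genes (Isg15, Rsad2, Ifi27l2a, Slfn5, Isg20, Ifit1, Irf7, Oasl2 and Herc6), beside 16 of all 2032 tested genes. It also held 3 MHC class I or GTPase genes (Psmb8, Gbp7 and Ifi47, of 14 and 9 tested), the lysosomal protease gene Ctss, and Ddx60, Gm13822 and Ran. No ribosomal protein gene was in it. With TMM factors 11 of the 16 were higher in both libraries (not Isg15, Ctss, Isg20, Gbp7 and Ifi47), without matching 10 and after thinning to 1000 UMIs 12. Retnlg alone, a secreted resistin-like protein of mature neutrophils, was lower under all 5 calculations.

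Of these 16 genes, 15 had a promoter window (250 bases before to 50 after the start of transcription) among the RefSeq sequences of GRCm38.p6, and 7 of the 15 held the ISRE core GAAANNGAA on either strand, against 2638 of all 27025 genes with a window (9.76%). The GAS core TTCNNNGAA, an element of interferon-gamma responsive genes, was in 3 of the 15 and in 9.55% of all genes. The stretches before the start that hold the ISRE core are shown for the 4 antiviral genes of the set that have one, read along the gene's strand, with the matched letters in capitals; some matches overlap. The antiviral genes Oasl2, Herc6, Isg20 and Irf7 held no match before the start, and Ifi27l2a had no window. Ctss, Gbp7 and Ddx60 held the core too and are not shown. Ifit1 (chr19:34640768-34640825, plus strand) had 3 matches, from 109 to 84 bases before its start, Isg15 (chr4:156200864-156200908, minus strand) 3 between 78 and 66, Slfn5 (chr11:82951935-82951990, plus strand) 2 between 155 and 132, and Rsad2 (chr12:26456551-26456583, minus strand) 1 at 119. A match is a description of the letters and not a measured site.
Ifit1: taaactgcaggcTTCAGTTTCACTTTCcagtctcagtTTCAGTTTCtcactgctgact
Isg15: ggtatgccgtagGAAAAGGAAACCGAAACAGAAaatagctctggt
Slfn5: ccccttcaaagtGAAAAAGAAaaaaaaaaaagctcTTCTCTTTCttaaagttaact
Rsad2: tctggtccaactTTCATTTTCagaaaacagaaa

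Antiviral interferon-stimulated genes had a positive median ratio in both libraries under each of 15 settings tried. Of 52 listed genes 24 reached 50 CPM; 15 of the 24 were higher in 4T1P and 15 in 4T1M, 14 of them in both, and none was lower. Their median ratio was 0.79 in 4T1P and 0.71 in 4T1M. The summed list stood at 6514 CPM in positives and 3847 CPM in matched negatives of 4T1P, a ratio of 0.76 (0.70 to 0.82), and at 9742 and 5546 CPM in 4T1M, a ratio of 0.81 (0.78 to 0.84). Leaving out the highest UMI decile, 20 of the 24 were higher in 4T1P and 18 in 4T1M, beside 9.79 and 4.87% of all tested genes, and the medians were 1.27 and 0.86. The counts were smaller without matching, at 9 and 12 (medians 0.48 and 0.55, beside 12.3 and 9.4% of all tested genes), and with TMM factors, at 10 and 9 (medians 0.54 and 0.45, beside 5.27 and 3.25%). The association over the other 9 deciles was thus larger than over all 10, and in the highest decile of 4T1P the positives and negatives stood at 2789 (2613 to 2973) and 2825 CPM (2669 to 2988), with overlapping intervals. In the highest decile of 4T1M they stood at 6642 (6503 to 6783) and 4074 CPM (3919 to 4234), with intervals apart.

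Ifit1, whose product binds viral RNA that lacks host cap marks, had the largest ratio of the list's tested genes. It stood at 150 CPM in positives and 35.6 CPM in matched negatives of 4T1P, a ratio of 2.04 (1.61 to 2.48), and at 285 and 90.02 CPM in 4T1M, a ratio of 1.66 (1.46 to 1.86). It was detected in 26.9% of positives and 8.29% of negatives in 4T1P and in 38.4% and 16.3% in 4T1M. Its relatives Ifit2 and Ifit3 were under 50 CPM and outside the counts above, with ratios of 2.33 and 1.16 in 4T1P and 3.08 and 3.34 in 4T1M. Ifit3 had only 10 UMIs in the positives of 4T1P (interval of the ratio 0.03 to 2.29) and 174 in those of 4T1M (2.73 to 3.95).

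Rsad2 encodes viperin, which makes a chain-terminating nucleotide. It stood at 551 against 264 CPM in 4T1P (1.06, 0.85 to 1.26) and at 1053 against 399 CPM in 4T1M (1.399, 1.31 to 1.49). Isg15, a ubiquitin-like protein and the most abundant gene of the list, stood at 1307 against 750 CPM in 4T1P (0.80, 0.67 to 0.93) and at 1727 against 926 CPM in 4T1M (0.90, 0.83 to 0.97). Irf7, the factor that amplifies type I interferon, stood at 164 against 62.2 CPM in 4T1P (1.38, 0.96 to 1.80) and at 172 against 88.4 CPM in 4T1M (0.96, 0.74 to 1.18). All 4 genes were higher in the positives of both libraries, and for each the ratio was positive without the highest UMI decile as well (2.23 and 1.77 for Ifit1, 1.62 and 1.36 for Rsad2, 1.39 and 1.03 for Isg15, 1.54 and 0.93 for Irf7).

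Other members ranged down to no difference. Ifi27l2a stood at 400 against 206 CPM in 4T1P and 903 against 412 CPM in 4T1M (0.95 and 1.13). Slfn5 had ratios of 0.90 and 0.93, while its family members Slfn4 and Slfn1 had 0.49 and 0.27, and 0.40 and 0.06. Irf9, a factor of the type I interferon response, had 0.02 and 0.26. Samd9l had the smallest ratios of the list, -0.01 and 0.03, with intervals that span 0 (-0.36 to 0.34 and -0.15 to 0.20). Ddx60, a helicase of the viral RNA sensing pathway that was in no list, had 1.34 and 0.93. Without the highest UMI decile Ifi27l2a had 1.4997 and 1.15, Slfn5 1.32 and 1.09, Slfn4 0.94 and 0.51, Slfn1 0.46 and 0.27, Irf9 0.14 and 0.31, and Ddx60 1.62 and 1.13. Bst2, the surface protein tetherin, lay just below 50 CPM and had ratios of 3.15 and 2.31, but 58.3% of its UMIs in the positives of 4T1P came from 1 cell; without the highest UMI decile the ratios were 1.95 and 1.86.

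Some MHC class I genes, which load and display peptides to CD8+ T cells, were also higher. Of 14 tested, 6 were higher in 4T1P and 8 in 4T1M, 5 in both, and none was lower; the medians were 0.52 and 0.61, and 0.56 and 0.66 without the highest UMI decile. The counts depended on the setting: at a mitochondrial limit of 5% only 1 was higher and 1 lower in 4T1P (median 0.27) and 6 were higher in 4T1M (beside 7.53 and 8.51% of all tested genes higher), with S100a8 and S100a9 at 5% or more 2 and 4 were higher (6.69 and 7.04%), without matching 2 and 3, and with TMM factors 2 and 2. Psmb8, a subunit of the immunoproteasome, stood at 238 against 97.1 CPM in 4T1P (1.28, 0.94 to 1.63) and at 209 against 115 CPM in 4T1M (0.86, 0.65 to 1.06). H2-K1 had ratios of 0.71 and 0.60 and B2m, the light chain, 0.43 and 0.51. H2-D1, the most abundant gene of the list, had 0.28 (0.17 to 0.39) and 0.37 (0.31 to 0.43). The peptide transporter gene Tap1 had -0.32 (-0.85 to 0.20) and 0.12 (-0.12 to 0.36). Without the highest decile Psmb8 had 1.61 and 0.96, H2-K1 0.71 and 0.67, B2m 0.38 and 0.42, and H2-D1 0.45 and 0.42. H2 genes are near copies of each other, so reads may be split between them.

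The guanylate-binding and immunity-related GTPases and other genes of the interferon-gamma response had different counts in the libraries, depending on the setting. Of 9 tested, 2 were higher in 4T1P (median 0.17) and 7 in 4T1M (median 0.70), beside 12.3 and 9.6% of all tested genes. Without the highest UMI decile the counts were 5 and 7 and the medians 0.71 and 0.79, beside 9.79 and 4.87%. That order of the libraries was not kept after thinning to 1000 UMIs, where 3 were higher in 4T1P and 2 in 4T1M, with 1 lower in each (medians 0.55 and 0.36, beside 17.8 and 10.3% of all tested genes higher). Without matching 0 were higher and 1 lower in 4T1P and 3 higher in 4T1M (medians -0.17 and 0.38). Of all tested genes 12.3 and 9.4% were higher there, and 12.1 and 0.738% lower. With TMM factors 1 and 2 were higher, beside 5.27 and 3.25%. Gbp7 and Ifi47 were higher in both libraries (0.84 and 0.78, and 0.73 and 0.82). Gbp5 had 0.48 and 1.45, and Cd274, which encodes PD-L1, -0.05 (-0.25 to 0.15) and 0.25 (0.16 to 0.33), but 0.16 and 0.12 without the decile, where Gbp5 had 0.71 and 1.41. Cxcl10, a chemokine for activated T cells, had -0.15 and 1.60 over all members and 0.57 and 1.82 without the decile, turned to -0.68 in 4T1M when cells were thinned to 1000 UMIs, and drew 71.4% of its UMIs in the positives of 4T1P from 1 cell. The difference between the libraries was not tested.

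Interferon receptors and a kinase they share had ratios under 1.5-fold in both libraries. Ifnar1 had ratios of 0.03 and 0.13, Ifnar2 -0.31 and -0.04, Ifngr1 -0.27 and -0.11, and Jak1 -0.14 and 0.10. Of the 14 tested genes of the list 2 were higher in 4T1P and 3 in 4T1M, and none was lower. Over all tested genes 12.3 and 9.6% were higher, and the 4T1P count was near that share. The list's medians were 0.03 and 0.18. Without the highest decile the medians were 0.20 in both, with 3 and 2 higher, beside 9.79 and 4.87% of all tested genes. Irf7 was higher in both libraries. Ifnb1, which encodes interferon beta, had 1 UMI in the positives of 4T1P and 18 in those of 4T1M. These counts are not set beside those of negatives, so no association with Ly6e can be read from them.

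**Figure D3:**
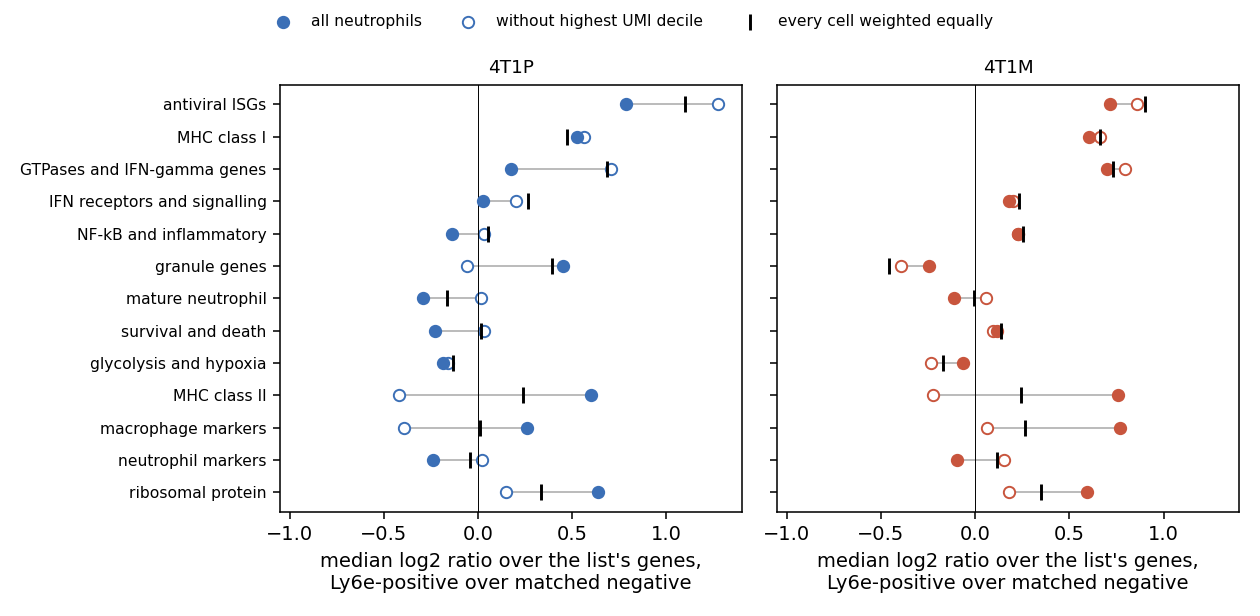
Median log2 ratio of Ly6e-positive over matched negative neutrophils for 13 gene lists in 4T1P (left) and 4T1M (right), over all neutrophils (filled), without the highest UMI decile (open) and with every cell weighted equally (bar). The antiviral, MHC class I and GTPase medians stay above 0 in all 3, while the MHC class II median turns from 0.60 to -0.42 in 4T1P and from 0.76 to -0.22 in 4T1M when the highest decile is left out.

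Some mature neutrophil genes were lower with Ly6e. Of 25 tested, 6 were lower in 4T1P and 4 in 4T1M and none was higher, with medians of -0.29 and -0.11. Over all tested genes 4.13 and 0.935% were lower. Without the highest UMI decile 1 of the 25 was higher and 1 lower in 4T1P, 2 were lower in 4T1M, and the medians were 0.01 and 0.06. There 6.35 and 1.08% of all tested genes were lower, so in 4T1P lower genes were no more frequent in the list than among all tested genes. Retnlg stood at 5105 CPM in positives and 11737 CPM in matched negatives of 4T1P (-1.20, -1.26 to -1.14) and at 4397 and 8924 CPM in 4T1M (-1.02, -1.055 to -0.99), and was -0.65 in both without the highest decile. The secreted protein gene Prok2 had -1.07 and -0.91 and S100a6, a calcium-binding protein gene, -0.67 and -0.66, with -0.53 and -0.83, and -0.43 and -0.49, without that decile. Wfdc17 had -0.86 and -0.66, but -0.05 and -0.50 without the decile. The stefin genes Stfa3 (-1.43 and -1.11), Stfa2 (-1.02 and -0.75) and Cstdc6 (-0.79 and -1.11) were lower as well, and Cstdc5 had -0.49 and -0.92. Without the decile they were nearer to 0, except Stfa2 in 4T1M, at -0.28 and -0.53 for Stfa3, -0.39 and -0.75 for Stfa2, -0.21 and -0.37 for Cstdc6, and -0.03 and -0.24 for Cstdc5. They are near copies of each other and their separate values are uncertain.

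Values of other programs depended on the deep cells and on the setting. Granule genes had medians of 0.45 in 4T1P and -0.25 in 4T1M, -0.06 and -0.39 without the highest UMI decile, and -1.30 and -0.36 after thinning to 1000 UMIs. Camp, the cathelicidin of specific granules, had 0.74 and 0.77 but -1.26 and -2.52 without that decile, and Ngp had 1.002 and 0.11 but -2.20 and -1.46. The 65 tested ribosomal protein genes, a list added after the values were seen, had medians of 0.64 and 0.59 (41 and 33 higher, 28 in both) and 0.15 and 0.18 (2 and 2 higher) without it. Rpl10a had 1.12 and 1.10 and then -0.58 and 0.43, and Rpl12 1.05 and 0.98 and then -0.15 and 0.28. At a mitochondrial limit of 5% the ribosomal medians were -0.012 in 4T1P and 0.51 in 4T1M, with 1 and 24 higher, beside 7.53 and 8.51% of all tested genes. Lgals1, a secreted galectin, had 1.66 and 1.77 but -0.20 and 0.06 without the decile. Cd74, the MHC class II invariant chain, had 0.66 and 1.17 and then -0.36 and -0.16. Hemoglobin gene Hbb-bs had the highest ratio in 4T1M, 5.602, with 83.4% of its UMIs in the positives from 1 cell, and had 1 UMI in the positives of 4T1P.

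Of the macrophage markers 4 were tested; Ctss had 0.80 and 1.58, and 1.35 and 1.16 without the highest decile, Lyz2 had 0.34 and 0.36, then -0.39 and 0.10, Cd68 had -0.32 and 0.12, then -0.55 and -0.38, and Lgmn 0.18 and 1.17, then -0.39 and 0.02. Csf1r, the receptor that defines the monocytic lineage, stood at 22.4 against 34.2 CPM in 4T1P and 76.7 against 33.9 CPM in 4T1M, with ratios of -0.15 and -0.07 without the decile. Mpeg1, a pore-forming protein gene of phagocytes, had 0.99 and 0.93, and 0.59 and 0.57 without the decile. In 4T1M the summed macrophage markers were 2985 CPM in positives against 1958 CPM in matched negatives, and the part that macrophage RNA has in the ratios was not tested; among cells with no UMI of Csf1r, Adgre1, Mrc1, Ms4a7 or Cd74 the antiviral medians were 0.69 and 0.92.

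No inflammatory gene of the NF-kB pathway was higher or lower in both libraries over all members. Of 35 tested, 1 was higher and 2 lower in 4T1P (median -0.14), and 8 were higher in 4T1M (median 0.23). The values of 4T1P turned sign with the setting. After thinning to 1000 UMIs, which left 36 positives, 11 were higher and 2 lower (median 0.29, summed list 0.24, 0.19 to 0.29). Of all tested genes 17.8% were higher there and 20.9% lower. Among cells with no C1qa, C1qb, C1qc or Apoe UMI 10 were higher and none lower (median 0.29), beside 15.5 and 10.3% of all tested genes. Cxcl2, a neutrophil attractant and the most abundant gene of the list, stood at 27906 against 32872 CPM in 4T1P (-0.24) and at 45415 against 41321 CPM in 4T1M (0.14). Il1a had -0.45 and 0.65, Il1b -0.14 and 0.32, Ccl3 -0.87 and 0.09, and Ccl4 -1.09 and 0.20. In the other 9 deciles Il1b was 0.14 and 0.39, Il1a -0.04 and 0.44, Cxcl2 -0.03 and 0.13, and Ccl3 -0.76 and 0.10. Glycolysis and hypoxia genes had medians below that of all tested genes (-0.19 and -0.06, with 0 of 20 higher in either library and 1 lower, in 4T1M), and genes of survival and death had -0.23 and 0.12 over 8 tested, with 0 higher and 1 lower, in 4T1P. Without the highest decile these medians were -0.16 and -0.24, and 0.03 and 0.10. Hmgb2, the only cycling marker tested, had 0.49 and 0.05, then -0.15 and -0.14 without the highest decile.

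Among the secreted factors that the study names for these cells, which it chose on these samples and which are no independent evidence, Tnf had ratios of 0.34 and 0.59, Il23a 0.52 and 1.03, Cxcl1 0.38 and 0.70, Saa3 0.36 and 0.59, Il1a -0.45 and 0.65, Ccl3 -0.87 and 0.09, and Ccl6 -0.65 and -0.24. Of the 7 tested, 0 were higher and 2 lower in 4T1P and 5 were higher and 0 lower in 4T1M (medians 0.34 and 0.59), while the summed list was lower in 4T1P, at 4900 against 7047 CPM (-0.52, -0.58 to -0.46), and higher in 4T1M, at 12015 against 10080 CPM (0.25, 0.23 to 0.28). The sum of 4T1P turned to 0.29 (0.21 to 0.38) among cells with no C1qa, C1qb, C1qc or Apoe UMI, with 4 higher and 1 lower, beside 15.5 and 10.3% of all tested genes. It was -0.13 (-0.30 to 0.05) after thinning to 1000 UMIs. In 4T1M 1 was higher after thinning, beside 10.3% of all tested genes, and 1 with TMM factors, beside 3.25%. The sum with TMM factors was -0.0065 (-0.029 to 0.016). Without matching or without the highest decile 2 were higher, beside 9.4 and 4.87%. These counts and sums mix factors that the study does not name for the same direction, Ccl6 among them. Without the highest UMI decile Tnf was -0.22 and 0.65, Il23a 0.55 and 1.196, Cxcl1 0.62 and 0.41, Saa3 0.29 and 0.24, and Ccl6 -0.55 and -0.48. Il12b was at 0 UMIs in the neutrophils of both libraries, which allows up to 1.20 CPM in 4T1P and 0.456 CPM in 4T1M.

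Of the Ly6 family, Ly6g and Plaur were tested. Ly6g, the neutrophil antigen, had 0.40 and -0.62, and 0.93 and -0.20 without the highest UMI decile; without matching on UMIs it was 0.39 in 4T1M. Plaur, the urokinase receptor, had -0.38 and -0.18, and -0.20 and -0.12 without that decile. Ly6a was rare, with 17 UMIs in the positives of each library, and in 4T1P 94.1% of them came from 1 cell.

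The antiviral genes were graded with the number of Ly6e UMIs. The deciles of 4T1P entered where they held a cell with 2 or more, which left 465, 52 and 34 cells with 0, 1 and 2 or more. In 4T1P the antiviral sum was 3608 CPM in neutrophils without Ly6e, 4974 CPM with 1 UMI and 6668 CPM with 2 or more, ratios of 0.46 (0.37 to 0.55) and 0.89 (0.81 to 0.96) over none. In 4T1M it was 5338, 7513 and 10694 CPM, ratios of 0.49 (0.45 to 0.53) and 1.002 (0.97 to 1.04). Over the other 9 deciles the ratios were 1.10 and 1.58 in 4T1P and 0.60 and 1.22 in 4T1M, so the steps were in the same order in both libraries. For MHC class I genes with the highest decile included the ratio with 1 UMI was -0.03 (-0.13 to 0.07) in 4T1P and 0.31 (0.26 to 0.36) in 4T1M, and with 2 or more it was 0.77 (0.69 to 0.85) and 0.64 (0.60 to 0.68); without that decile they were 0.37 (0.25 to 0.48) and 0.36 (0.31 to 0.41) with 1 UMI, and 0.82 (0.70 to 0.93) and 0.68 (0.63 to 0.73) with 2 or more. Other lists stepped with Ly6e too: in 4T1M the macrophage markers had 0.36 and 0.74 with 1 and with 2 or more UMIs (0.17 and 0.35 without that decile) and ribosomal protein genes 0.21 and 0.66 (0.06 and 0.20). In 4T1P macrophage markers had 0.65 and -0.06 (0.06 and -0.40) and ribosomal protein genes -0.48 and 1.11 (0.04 and 0.15), and the part of such RNA in the antiviral steps was not tested. NF-kB genes had -0.28 and 0.21 with 2 or more UMIs, and 0.06 and 0.18 without that decile.

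**Figure D4:**
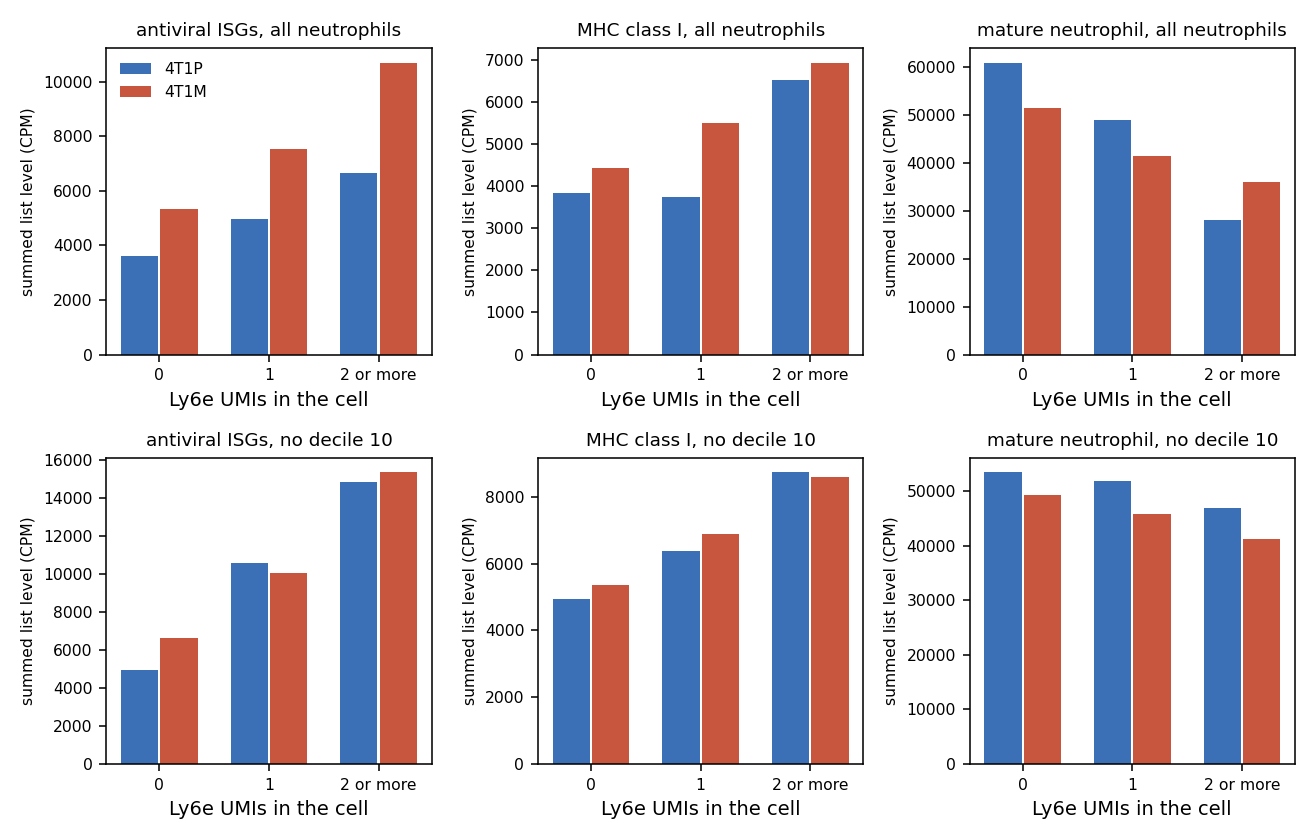
Summed level (CPM, bars from 0) of antiviral, MHC class I and mature neutrophil genes in neutrophils with 0, 1 and 2 or more Ly6e UMIs, weighted to the UMI deciles of the last class, over all neutrophils (top) and without the highest UMI decile, decile 10 (bottom), for 4T1P and 4T1M. Antiviral sums step up in both rows and libraries (3608, 4974 and 6668 CPM in 4T1P and 5338, 7513 and 10694 CPM in 4T1M at the top). Mature neutrophil sums step down, with smaller steps at the bottom (53504, 51902 and 46961 CPM in 4T1P and 49273, 45919 and 41240 CPM in 4T1M).

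Seen from the other side, neutrophils were ranked within UMI deciles by the share of their UMIs in a list and split into 4 equal groups. For the antiviral list, 10.0% of the lowest group and 26.7% of the highest were Ly6e-positive in 4T1P, with Ly6e at 29.5 and 158 CPM. In 4T1M the shares were 17.6 and 47.6%, at 81.5 and 360 CPM. The MHC class I list gave 8.12 and 27.3% in 4T1P and 17.1 and 49.0% in 4T1M. For NF-kB genes the shares were 17.5 and 15.3% in 4T1P and 20.4 and 31.2% in 4T1M, and the third group of 4T1M was the highest at 38.1%. For mature neutrophil genes the share was lower in the highest group, 10.7 against 18.1% in 4T1P and 22.4 against 32.6% in 4T1M.

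Single members nevertheless overlapped widely with negatives. At 1000 UMIs per cell, positives of 4T1P held a median of 5 antiviral UMIs (5th to 95th percentile 0 to 35.4) and negatives 3 (0 to 18). In 4T1M positives held 8 (1 to 36.3) and negatives 4 (0 to 23). Of the positives 6 of 93 and 14 of 498 held no antiviral UMI at that depth, and so did 71 of 519 and 93 of 1184 negatives. Granule genes had a long upper tail among positives, with a median of 4 and a 95th percentile of 104.8 UMIs in 4T1P and of 3 and 40.6 in 4T1M, against 95th percentiles of 23.2 and 20 in negatives.

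Ly6e was placed beside other genes by splitting neutrophils on each of 20 surface and interferon genes in turn and comparing the sum of 43 antiviral genes that were not used for any split. Cells with Ly6e had ratios of 0.62 (0.54 to 0.69) in 4T1P and 0.65 (0.61 to 0.68) in 4T1M over cells without it, rank 10 of 19 and 9 of 20 split genes. A decile without cells on either side of a split was left out for that gene, so the ratios and ranks rest on partly different cells. Larger ratios came with Ifit3 (1.959 and 1.33), Ifit1 (1.83 and 1.18), Slfn5 (1.72 and 1.17) and Isg15 (1.34 and 1.52). Ifit3 in 4T1P rested on 13 cells, all in the lower 9 deciles. Over the lower 9 deciles the values were 1.959 and 1.53 for Ifit3, 1.87 and 1.37 for Ifit1, 1.76 and 1.25 for Slfn5, and 1.41 and 1.51 for Isg15. The surface genes Bst2 (0.66 and 0.64) and Cd274 (0.75 and 0.51) had ratios near that of Ly6e, Ifitm3, which blocks virus entry at membranes, had 0.27 in 4T1P and 1.24 in 4T1M, and Ly6g had -0.35 and -0.48. Over the lower 9 deciles Ly6e gave 1.06 and 0.78, Bst2 0.77 and 0.71, Cd274 0.69 and 0.33, Ifitm3 1.18 and 1.34, and Ly6g 0.03 and -0.0048, so that Bst2 and Cd274 lay below Ly6e there and Ifitm3 above it.

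**Figure D5:**
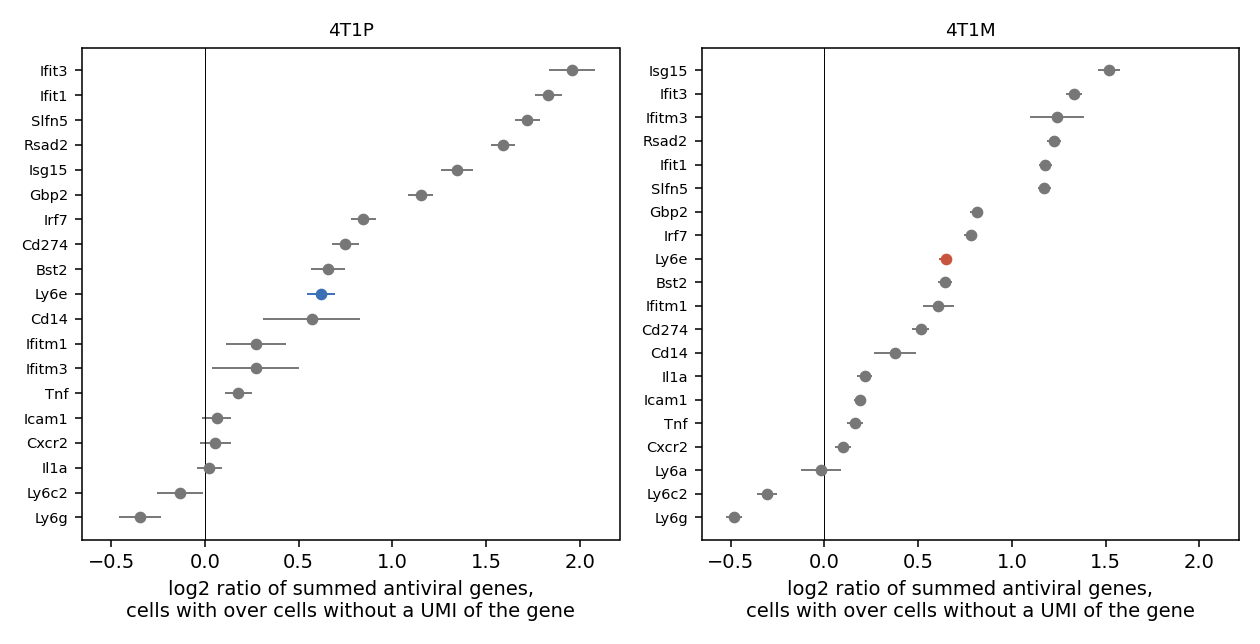
Log2 ratio of the sum of 43 antiviral genes in neutrophils with over neutrophils without a UMI of the gene on the y axis, matched on UMI deciles, in 4T1P (left) and 4T1M (right); bars are 95% intervals for counting error and Ly6e is colored. Deciles without cells on either side of a split are left out for that gene, so genes are compared over partly different cells. Ly6e is at 0.62 and 0.65, below Ifit3, Ifit1, Slfn5 and Isg15 and near Bst2 and Cd274; without the highest UMI decile, not plotted, Ly6e is at 1.06 and 0.78, Bst2 at 0.77 and 0.71, Cd274 at 0.69 and 0.33 and Ifitm3 at 1.18 and 1.34.

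Between the libraries, the summed antiviral list was higher in 4T1M with and without Ly6e, by less than 1.5-fold. In positives the list stood at 6514 CPM in 4T1P and 9742 CPM in 4T1M, a ratio of 0.58 (0.53 to 0.63), and in negatives at 4506 and 6287 CPM, a ratio of 0.48 (0.45 to 0.52). The median over all tested genes was 0.11 in positives and -0.002 in negatives. Members differed: in positives, with the deep cells included, Rsad2 had 0.93 and Ifit1 0.92, while Slfn4 had 0.06 (-0.08 to 0.20) and Irf7 0.07 (-0.25 to 0.39). Without the highest UMI decile the ratio of the summed list was 0.13 in positives and 0.43 in negatives. The difference between these values was not tested, and the libraries differ in tumor line, mice and capture, which cannot be told apart.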

How the data were processed

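The deposited values are UMI counts per gene and barcode, made by the authors with Cell Ranger (4.0.0 by the matrix header and the submitters' processing notes, 5.0.1 by the methods) against GRCm38, unnormalized and with 1 library per condition. The series' design text gives 5 mice pooled per sample; the study gives fewer, and an older age range than the labels. Retained cells held 12948585 UMIs in 4T1P and 19302483 in 4T1M, neutrophils 2502947 and 6580005, and members 580634 and 2674456. Rows with the same symbol were summed (32285 listed, 32245 symbols). The libraries shared 5 barcodes, none of them among neutrophils. Sums were scaled to CPM in Python 3.11.15 with scipy 1.17.1; TMM factors came from edgeR 4.0.16. Shares have exact binomial (Clopper-Pearson) and levels exact Poisson intervals, and ratios delta-method intervals, all at 95%. Doublets were not removed. The genes of the membership rule were left out of counts of genes.

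The members and gene lists were chosen with earlier results of these data known. Named genes are Ly6e, the 12 highest and 12 lowest genes of at least 100 CPM by the smaller of the 2 libraries' ratios where both had 1 sign, in each list the 4 most abundant members and those of highest and lowest mean ratio, the study's factors and the split panel; others named were chosen after their values were seen. Motif shares are given only for gene sets of which at least 80% had a promoter window; the tested genes had 79.3%, so their share is not given. Some results on single genes are not reported here.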

Additional observations from a re-analysis of the deposited data

Results flagged for a closer look

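Some genes and summed lists had ratios of Ly6e-positive over matched negative neutrophils whose counting intervals lay on opposite sides of 0 in the 2 libraries. With 1 library per condition, the difference between the libraries was not tested for any of them. Among inflammatory genes the ratio in 4T1P and 4T1M was -0.87 and 0.092 for Ccl3, -1.09 and 0.20 for Ccl4, -0.24 and 0.14 for Cxcl2, -0.45 and 0.65 for Il1a, and -0.14 and 0.32 for Il1b. Of these, Il1b had the same sign in both libraries without the highest UMI decile (0.14 and 0.39), and Ccl4 had the reverse signs, 0.62 and -0.55, after thinning to 1000 UMIs. Among genes of neutrophils it was -0.24 and 0.14 for G0s2, an inhibitor of fat breakdown, -0.24 and 0.12 for Hdc, which makes histamine, 0.42 and -0.50 for the granule gene Lcn2, and 0.40 and -0.62 for Ly6g. Without the highest decile G0s2 was 0.05 and 0.29 and Lcn2 -0.66 and -0.87, the same sign in both, while Hdc (-0.17 and 0.20) and Ly6g (0.93 and -0.20) still had opposite signs. Of 13 settings, the number with opposite signs in the 2 libraries was 11 for Ccl4, Hdc and Il1a, 10 for Ccl3, Cxcl2 and Lcn2, 9 for Ly6g, 8 for G0s2 and 7 for Il1b.

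The summed NF-kB list stood apart in the same way, at -0.24 in 4T1P and 0.18 in 4T1M, the granule list at 0.53 and -0.079, and the list of survival and death genes at -0.20 and 0.10. Without the highest UMI decile these sums were -0.03 and 0.17, -0.21 and -0.48, and 0.03 and 0.10. After thinning to 1000 UMIs they were 0.24 and 0.03, -1.25 and -0.53, and 0.07 and 0.11, and among cells with no C1qa, C1qb, C1qc or Apoe UMI the NF-kB sum was 0.16 and 0.19. Signs were opposite under 9 of 13 settings for the NF-kB and granule sums and 8 for the survival and death sum.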

How the results depend on the processing

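The antiviral median was positive in both libraries under every alternative tried, from 0.48 to 1.27 in 4T1P and from 0.45 to 0.94 in 4T1M, and no antiviral gene was lower by 1.5-fold in either. The MHC class I median was also positive under each of them. Of 2548 values of the 98 named and tested genes under the alternatives, 48 had the opposite sign to a value of 1.5-fold or more, 1220 lay beyond the counting interval and 1280 within it. Of the list medians 12 turned sign in that way, 274 lay beyond the interval and 104 within it. Smaller list medians turned sign as well, among them in 4T1P the NF-kB median to 0.29 after thinning to 1000 UMIs and with no C1qa, C1qb, C1qc or Apoe UMI, the GTPase median to -0.17 without matching and -0.08 with TMM factors, and the macrophage marker median to -0.92 after thinning and -0.39 without the highest UMI decile. The sentences that follow give gene counts that changed by over 1.5 times, antiviral, share, graded, panel and between-library values beyond the counting interval, and every value that turned sign from 1.5-fold or more; the cause was not tested, except that the limits of 200 and 20 CPM change the number of genes tested (615 and 3646).

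Without matching on UMIs, the gene counts were 246 lower in 4T1P, the antiviral median was 0.48 in 4T1P and 0.55 in 4T1M, the antiviral ratio at 2 or more over 0 UMIs was 0.56 in 4T1P and 0.77 in 4T1M and the panel ratio of Ly6e was 0.44 in 4T1P and 0.52 in 4T1M. Reversed there were Ly6g (0.39 in 4T1M). With 20 UMI bins, the gene counts were 51 lower in 4T1P and the antiviral median was 1.01 in 4T1P. Genes that turned sign were Chil3 (-0.054 in 4T1P). With bins of detected genes, the gene counts were 70 higher in both libraries, 5 lower in both libraries, 126 higher in 4T1M and the antiviral median was 0.92 in 4T1P and 0.68 in 4T1M. With equal numbers of negatives drawn, the antiviral median was 0.93 in 4T1P. With 2 or more Ly6e UMIs in positives, the gene counts were 201 higher in both libraries, 21 lower in both libraries, 448 higher in 4T1P, 219 lower in 4T1P, 40 lower in 4T1M and the antiviral median was 0.95 in 4T1P and 0.94 in 4T1M. After thinning to 1000 UMIs, the gene counts were 70 higher in both libraries, 36 lower in both libraries, 425 lower in 4T1P, 109 lower in 4T1M, the antiviral median was 1.16 in 4T1P and 0.81 in 4T1M, the MHC class II median was -0.1 in 4T1P and -0.11 in 4T1M and the Ly6e-positive share was 5.88% in 4T1P and 12.2% in 4T1M. Here the sign turned for Camp (-5.75 in 4T1P), Camp (-1.65 in 4T1M), Ccl4 (0.62 in 4T1P), Cxcl10 (-0.68 in 4T1M), H2-Aa (-0.33 in 4T1M), H2-Ab1 (-0.44 in 4T1M), H2-Eb1 (-0.23 in 4T1P), Ifitm1 (0.0083 in 4T1P), Lgals1 (-1.39 in 4T1P), Mmp8 (0.15 in 4T1M), Ngp (-6.32 in 4T1P). After thinning to 2000 UMIs, the Ly6e-positive share was 9.11% in 4T1P and 20.4% in 4T1M. At a mitochondrial limit of 5%, the gene counts were 50 higher in both libraries, 153 higher in 4T1P, 137 lower in 4T1P, the antiviral median was 0.71 in 4T1P and 0.66 in 4T1M, the MHC class II median was -0.59 in 4T1P and the ribosomal median was -0.012 in 4T1P. Under it the sign changed for Cd74 (-0.71 in 4T1P), H2-Eb1 (-0.25 in 4T1P), Rpl10a (-0.017 in 4T1P), Rpl12 (-0.055 in 4T1P). With no C1qa, C1qb, C1qc or Apoe UMI, the gene counts were 209 lower in 4T1P, 36 lower in 4T1M, the antiviral median was 1.24 in 4T1P and 0.91 in 4T1M, the MHC class II median was -0.21 in 4T1M, the macrophage marker median was -0.10 in 4T1M and the Ly6e-positive share was 25.9% in 4T1M. Reversed there were Cd74 (-0.15 in 4T1M), H2-Aa (-0.45 in 4T1M), H2-Ab1 (-0.12 in 4T1M), H2-Eb1 (-0.26 in 4T1M), Lgmn (-0.46 in 4T1M), Rpl10a (-0.00036 in 4T1M). With S100a8 and S100a9 at 5% or more, the gene counts were 41 higher in both libraries, 136 higher in 4T1P, the antiviral median was 0.66 in 4T1P and 0.59 in 4T1M, the MHC class II median was -0.43 in 4T1P, the ribosomal median was -0.058 in 4T1P and the Ly6e-positive share was 26.9% in 4T1M. Genes that turned sign were Cd74 (-0.45 in 4T1P), H2-Eb1 (-0.41 in 4T1P), Rack1 (-0.077 in 4T1P), Rpl10a (-0.55 in 4T1P), Rpl12 (-0.24 in 4T1P), Rps19 (-0.064 in 4T1P). Leaving out the highest UMI decile, the gene counts were 58 higher in both libraries, 99 higher in 4T1M, 129 lower in 4T1P, the antiviral median was 1.27 in 4T1P and 0.86 in 4T1M, the MHC class II median was -0.42 in 4T1P and -0.22 in 4T1M, the Ly6e-positive share was 26% in 4T1M, the antiviral ratio at 2 or more over 0 UMIs was 1.58 in 4T1P and 1.22 in 4T1M, the panel ratio of Ly6e was 1.06 in 4T1P and 0.78 in 4T1M and 4T1M over 4T1P was 0.13 in positives and 0.43 in negatives. Here the sign turned for Camp (-1.26 in 4T1P), Camp (-2.52 in 4T1M), Cd74 (-0.36 in 4T1P), Cd74 (-0.16 in 4T1M), H2-Aa (-0.27 in 4T1M), H2-Ab1 (-0.42 in 4T1M), H2-Eb1 (-0.10 in 4T1P), H2-Eb1 (-0.18 in 4T1M), Ifitm1 (0.081 in 4T1P), Lgals1 (-0.20 in 4T1P), Ngp (-2.20 in 4T1P), Rpl10a (-0.58 in 4T1P), Rpl12 (-0.15 in 4T1P). Without cells with macrophage RNA, the gene counts were 72 higher in both libraries, 131 lower in 4T1P, 31 lower in 4T1M, the antiviral median was 0.69 in 4T1P and 0.92 in 4T1M, the MHC class II median was -0.37 in 4T1P and -0.30 in 4T1M, the antiviral ratio at 2 or more over 0 UMIs was 1.28 in 4T1M, the panel ratio of Ly6e was 0.83 in 4T1M and 4T1M over 4T1P was 0.76 in positives and 0.42 in negatives. Under it the sign changed for Cd74 (-0.16 in 4T1P), H2-Aa (-0.34 in 4T1M), H2-Ab1 (-0.64 in 4T1M), H2-Eb1 (-0.051 in 4T1P), H2-Eb1 (-0.25 in 4T1M), Hbb-bs (0.90 in 4T1P). Over genes of at least 200 CPM, the gene counts were 37 higher in both libraries, 6 lower in both libraries, 61 higher in 4T1P, 52 higher in 4T1M, 28 lower in 4T1P, 10 lower in 4T1M and the antiviral median was 0.68 in 4T1P. Over genes of at least 20 CPM, the gene counts were 247 higher in both libraries, 659 higher in 4T1P, 474 higher in 4T1M, 199 lower in 4T1P, 41 lower in 4T1M and the antiviral median was 0.82 in 4T1M. With TMM scaling, the gene counts were 36 higher in both libraries, 40 lower in both libraries, 107 higher in 4T1P, 66 higher in 4T1M, 264 lower in 4T1P, 97 lower in 4T1M and the antiviral median was 0.54 in 4T1P and 0.45 in 4T1M. With every cell weighted equally, chosen after seeing the data, the gene counts were 58 higher in both libraries, 125 higher in 4T1M and the antiviral median was 1.10 in 4T1P and 0.90 in 4T1M.

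For the number of Ly6e UMIs, the panel and the comparison between libraries, leaving out the highest UMI decile was chosen after seeing the data. Depth limits 4T1P most: 26 of the tested genes had under 20 UMIs in its 93 positives. After thinning to 1000 UMIs 36 positives remained there, so values of single genes under that setting rest on few UMIs. No paired analysis was possible because each condition has 1 library, so the groups share fewer than 2 replicate numbers; positives and negatives were compared within their own library.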
